A study of Mus musculus with 24 samples.

Results

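Weight bearing (WB) gastrocnemius and plantaris muscle of Nfkb1-/- mice was set against the same muscle of wild type mice, with 4 arrays of each genotype, chosen by their titles from the 24 arrays of the series. These 8 animals stood on the floor of their cages and were not unloaded, so the difference between them is that of the resting muscle before any disuse. All mice were 6-week-old males acclimated for 3 days. The wild type mice were B6129PF2/J, which are F2 hybrids, so that each animal carries its own mix of B6 and 129 alleles, and the knockout mice were B6;129P2-Nfkb1tm1Bal/J, a deletion present in every cell of the body. Genotype and strain background cannot be told apart in this comparison. Muscle of 8 further mice of the same genotypes, hindlimb unloaded (HU) for 6 days, was measured in the same run. It served as a second comparison of the genotypes in other animals. Each array stood for 1 mouse by the methods of the study, and the p-values measure the spread between these mice.

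Nfkb1 encodes p105, which is processed to the NF-kB subunit p50. NF-kB subunits act as dimers that are held in the cytoplasm by IkB proteins until the IKK complex phosphorylates these inhibitors. p50 lacks the transactivation domain that RelA, RelB and c-Rel carry, so that its homodimers can repress genes, or activate them together with the nuclear IkB protein Bcl-3. NF-kB and the interferon pathway share upstream sensors of infection, and many genes that interferon induces carry the interferon-stimulated response element (ISRE) in their promoters.

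Signals were deposited as RMA intensities on a linear scale, which carry no depth, so that the number of arrays sets the precision. The 16 arrays of the run had median intensities of 11.6 to 11.9, and 9048 to 9341 probe sets per array lay above 20. Tested were the 9309 probe sets above 20 on at least 4 of the 8 WB arrays, and they stood for 5754 genes. Differences are given as log2 of the Nfkb1-/- intensity minus log2 of the wild type intensity, with the standard error (SE) of the limma fit, and a probe set was called where its Benjamini-Hochberg adjusted p was under 0.05. The wild type WB arrays varied more than the knockout ones: the median standard deviation (SD) of log2 intensity was 0.131 in wild type and 0.0939 in Nfkb1-/-, and 68.5% of probe sets had the larger SD in wild type. Wild type WB replicate 4 had the lowest array weight of the 8, 0.379. Nfkb1 had no probe set listed under its own name alone, so the deletion was not checked here.

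The resting muscle of the genotypes differed at few probe sets, and 6 genes of the interferon response list were among the 34 named genes that were higher in the knockout. Of the 9309 probe sets, 84 (0.902%) were called, 50 higher (0.537%) and 34 lower (0.365%) in Nfkb1-/-. The higher ones stood for 34 named genes, 13 probe sets listed with several genes and 1 with no listed gene, and the lower ones for 29 named genes, 1 probe set with several genes and 1 with none. The log2 differences ran from 0.38 to 2.11 among the higher and from 0.30 to 2.32 in size among the lower, with 17 and 9 probe sets beyond 2-fold. The 4 and 4 arrays did not overlap at all 50 higher and at 32 of the 34 lower probe sets, where 8.37% of all tested probe sets did not overlap. Over all genes the median difference was -0.01, and 48.1% of genes were higher in the knockout.

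The interferon response list, 47 genes that type I or type II interferon is known to induce, had 16 measured members. Of these, 6 rose in Nfkb1-/- and none fell, against 0.452% of all 5754 genes called higher and 0.365% called lower. The median difference of the 16 was 0.51, 14 of them were positive, and 10 had arrays that did not overlap between the genotypes. Over all features, 48.1% of genes were positive and 8.37% of probe sets did not overlap. Members pass the intensity filter more easily where one genotype is high, so the count over measured members is given as a description. Without any filter, 39 members had a probe set of their own, of which 14 were called higher and none lower, with a median of 0.37, against 0.387% of all genes called higher and 0.234% called lower without the filter. With the filter raised to 50, 5 members were measured and 1 was called, with a median of 0.57.

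Rtp4, a chaperone-like transmembrane protein induced by interferon, had intensities of 17.7, 20.4, 18 and 19.1 in wild type and of 53.8, 57.7, 53.3 and 65.5 in Nfkb1-/-. Every knockout array lay more than 2-fold above every wild type array, and the difference was 1.61 ± 0.15 (SE, n = 4 and 4, limma adjusted p = 1.59e-05). Bst2, or tetherin, which holds enveloped viruses at the cell surface, read 7.36, 7.58, 10.9 and 4.61 in wild type and 22.6, 23.5, 20.2 and 27.7 in the knockout, a difference of 1.68 ± 0.18 (limma adjusted p = 4.91e-05). No wild type array of Bst2 reached 20, so the size of this difference rests on low intensities. Ifit3, an antiviral protein with tetratricopeptide repeats, read 16.0, 24.4, 15.2 and 15.1 against 36.7, 36.5, 38.7 and 53.6, with a difference of 1.24 ± 0.23 (limma adjusted p = 0.0118).

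Gbp7, a guanylate-binding GTPase, read 21.5, 25.5, 20.1 and 30.0 in wild type and 46.7, 50.2, 46.9 and 47.4 in the knockout (0.99 ± 0.19, limma adjusted p = 0.0148). Oas1a, an oligoadenylate synthetase that senses double-stranded RNA, read 14.2, 14.2, 14.9 and 16.4 against 28.2, 24.8, 27.6 and 26.2 (0.84 ± 0.16, limma adjusted p = 0.0167). Ifih1, the RNA sensor MDA5, read 19.2, 22.7, 20.6 and 17.8 against 32.2, 29.5, 32.9 and 36.9 (0.71 ± 0.10, limma adjusted p = 0.00106). In all 3 genes the groups were separate, with the knockout on top. Rsad2, or viperin, had a larger difference, 1.51 ± 0.53, but a wide spread, and did not pass (limma adjusted p = 0.274). Iigp1, an immunity-related GTPase, had 1 wild type array at 17.4 and 3 at 93.2 to 107, around the knockout arrays at 49.2 to 69.9.

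Members too dim for the filter showed the same direction where they moved. Without the filter, Usp18, the protease that removes ISG15 and dampens interferon signalling, had a mean intensity of 5.40 ± 0.567 (SD, n = 4) in wild type and of 16.8 ± 1.26 in Nfkb1-/- (log2 difference 1.64, limma adjusted p = 6.09e-06). Oasl2 read 4.83 ± 0.347 and 14.5 ± 1.21 (1.59, limma adjusted p = 1.78e-05), and Ifit1 read 4.16 ± 0.155 and 11.5 ± 2.02 (1.46, limma adjusted p = 8.1e-06). Irf7, the transcription factor that amplifies type I interferon, read 9.88 ± 1.25 and 16.1 ± 2.22 (0.71, limma adjusted p = 0.00562). Mx1, Mx2, Oas3, Oasl1, Zbp1 and Dhx58 were as dim in both genotypes and were not called. These values lie where the array separates signal from background poorly, and their fold sizes are uncertain.

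Further genes outside the list that are known to respond to interferon were among the largest of the higher calls. Ifi27l2a, a small mitochondrial protein induced by interferon, read 36.2, 53.1, 68.7 and 38.7 in wild type and 178, 122, 148 and 144 in Nfkb1-/- (1.63 ± 0.35, limma adjusted p = 0.0352). Mndal, of the interferon-inducible p200 family, was called with both of its probe sets, at 1.11 ± 0.15 and 0.75 ± 0.16. Lgals3bp, a secreted galectin-binding glycoprotein, read 23, 19.7, 28.2 and 21.7 against 50.3, 47.8, 44.8 and 50.6 (1.07 ± 0.19, limma adjusted p = 0.00963). Beyond the genes picked by size, Lgals9 (0.76 ± 0.09), Parp12 (0.89 ± 0.13), Trim25 (0.52 ± 0.09) and Casp12 (0.84 ± 0.16) were called as well and are named after their values were seen.

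**Figure D1:**
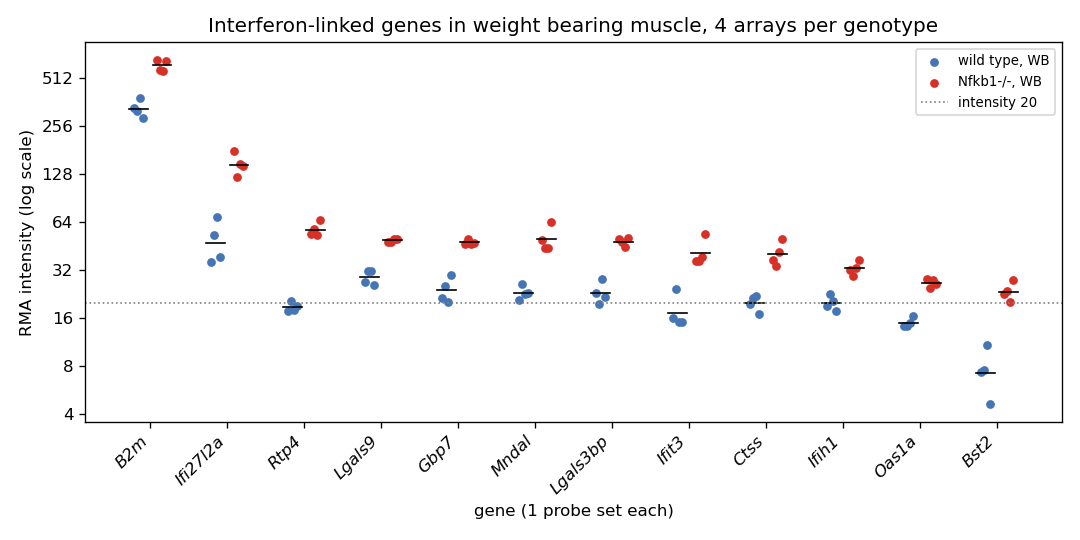
RMA intensity (log scale) of 12 called genes linked to interferon or antigen presentation in WB muscle; points are arrays, 4 of wild type (blue) and 4 of Nfkb1-/- (red), and bars are geometric means. The knockout arrays lie above the wild type arrays in each gene. For Rtp4, Ifit3, Ctss, Ifih1, Oas1a and Bst2 most or all wild type arrays lie near or below the filter at 20 (dotted line).

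B2m, the invariant light chain of MHC class I molecules, rose at both of its probe sets. The brighter one read 355, 353, 464 and 346 in wild type and 659, 643, 594 and 686 in Nfkb1-/- (0.78 ± 0.16, limma adjusted p = 0.0203), and the other differed by 0.91 ± 0.17 (limma adjusted p = 0.0134). B2m was the one called gene among 11 measured of the MHC class I presentation list, whose median difference was 0.14. H2-D1, a class I heavy chain, differed by 0.49 ± 0.15 and Psmb8, an immunoproteasome subunit, by 0.46 ± 0.16, neither of them past the test.

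The promoters of the genes that rose were searched for the ISRE, and some of those that hold it are shown. The letters searched were GAAA, any 2 bases and GAAA again, on either strand, a choice made after these genes were seen, in RefSeq promoters (GRCm38.p6) from 250 bases before to 50 after each start. Of the 34 named genes called higher, 28 matched a promoter in the table and 9 of these (32.1%) held a match, against 1 of 21 genes (4.76%) called lower, 3.62% of all tested genes with a promoter and 3.44% of all promoters. Among the called higher genes outside the interferon response list it was 4 of 23 (17.4%). The matches stood in Bst2, Ifit3, Oas1a, Gbp7, Ifih1, Mndal, Lgals9, B2m and Ctss. None was found for Rtp4, Ifi27l2a, Lgals3bp, Parp12, Trim25 or Casp12, whose promoters held no match or were not available. For 6 of the genes with a match the 200 bases before the start follow, 5′ to 3′ on the strand of the gene. The matches are in capitals.
Bst2, chr8:71537473-71537672, reverse strand: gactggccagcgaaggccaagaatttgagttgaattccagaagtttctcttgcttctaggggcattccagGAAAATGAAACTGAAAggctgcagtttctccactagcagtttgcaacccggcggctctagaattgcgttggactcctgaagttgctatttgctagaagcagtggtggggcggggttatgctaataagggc
Ifit3, chr19:34583329-34583528, forward strand: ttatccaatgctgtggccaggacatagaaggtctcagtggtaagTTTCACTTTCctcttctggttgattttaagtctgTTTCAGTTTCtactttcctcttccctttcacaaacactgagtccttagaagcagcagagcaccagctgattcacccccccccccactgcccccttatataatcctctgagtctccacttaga
Oas1a, chr5:120907526-120907725, reverse strand: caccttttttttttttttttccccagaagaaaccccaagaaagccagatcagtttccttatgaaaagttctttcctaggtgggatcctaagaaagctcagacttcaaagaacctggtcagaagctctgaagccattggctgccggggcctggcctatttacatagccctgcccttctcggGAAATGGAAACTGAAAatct
Gbp7, chr3:142530136-142530335, forward strand: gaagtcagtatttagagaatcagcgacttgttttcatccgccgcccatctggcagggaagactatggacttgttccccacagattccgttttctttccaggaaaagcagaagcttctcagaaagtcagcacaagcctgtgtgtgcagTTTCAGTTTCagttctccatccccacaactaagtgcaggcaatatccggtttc
B2m, chr2:122147487-122147686, forward strand: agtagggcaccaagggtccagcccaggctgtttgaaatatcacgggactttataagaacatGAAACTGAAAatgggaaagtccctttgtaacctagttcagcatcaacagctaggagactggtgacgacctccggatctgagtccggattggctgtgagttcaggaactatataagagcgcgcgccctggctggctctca
Ctss, chr3:95526586-95526785, forward strand: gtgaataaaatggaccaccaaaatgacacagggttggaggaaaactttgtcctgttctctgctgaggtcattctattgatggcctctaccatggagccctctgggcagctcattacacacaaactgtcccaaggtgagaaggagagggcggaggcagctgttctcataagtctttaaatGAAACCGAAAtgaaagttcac

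In Bst2 and Oas1a 2 overlapping matches run together, starting 130 and 124 bases before the start of Bst2 and 20 and 14 before that of Oas1a. Ifit3 has separate matches at 156 and 122 bases before its start, both read on the opposite strand, and Gbp7, also on the opposite strand, has 1 at 53. B2m has its match at 139 and Ctss at 21 bases. The NF-kB consensus was searched in the same windows on both strands. It stood in 5 of the 28 promoters of called higher genes (17.9%) and in 4 of the 21 of called lower genes (19%), against 12% of all tested genes. Bst2 and B2m hold both motifs, with the NF-kB match starting at 142 and 126 bases before the start, without overlap with the ISRE. With a stricter form of the consensus the shares were 14.3%, 14.3% and 6.5%. A match is a run of letters and does not show that a factor binds there.

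Some markers of immune cells were higher in the same knockout arrays, mostly without passing the test. All 13 measured members of the macrophage and dendritic cell list, of 34 in the list, had positive differences, against 48.1% of all genes. Their median was 0.38, and the arrays of 6 did not overlap, against 8.37% of all tested probe sets. Without the filter, 28 of 33 members were positive, with a median of 0.32. The summed intensity of the 13 measured members was 733 to 944 on the wild type arrays and 900 to 1255 on the knockout arrays. Of these 13 genes Ctss alone was called, at 19.5, 21.3, 22 and 17 in wild type and 37.0, 33.8, 41.6 and 50.2 in Nfkb1-/- (1.02 ± 0.22, limma adjusted p = 0.0405). Ctss encodes the lysosomal protease cathepsin S, which cleaves the invariant chain of MHC class II. Csf1r, the receptor that macrophages need to survive, differed by 0.34 ± 0.13 and Ptprc, the pan-leukocyte antigen CD45, by 0.33 ± 0.19, neither called. All 4 measured MHC class II genes had differences of 0.65 to 0.70, and none was called. H2-Ab1 stood at 0.70 ± 0.24 and H2-Eb1 at 0.68 ± 0.23. Without the filter, 4 of 9 class II genes were positive, and their median was -0.02. In unloaded muscle 9 of the 13 macrophage genes were positive, with a median of 0.08, and none was called. Of the 16 interferon genes 13 were positive there, with a median of 0.37, and 7 were called higher, against 4.8% of all genes. More cells of a type and more RNA per cell cannot be told apart in whole muscle. The part of immune cells in the interferon genes was not tested in either comparison.

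Ighm, the heavy chain of immunoglobulin M, differed by 2.06 ± 0.65 without passing the test (limma adjusted p = 0.203); its wild type arrays read 20.4, 59.8, 39.3 and 117 and its knockout arrays 186, 270, 220 and 155. It and Ebf1 (0.26 ± 0.16) were the 2 measured of 25 B cell markers. Without the filter, 11 of 19 B cell markers were positive, with a median of 0.06. Among the erythroid markers, Hbb-b2, a beta globin, read 14.1 to 14.6 in wild type and 54.5, 51.9, 22.9 and 24.6 in the knockout (1.31 ± 0.45, limma adjusted p = 0.254), and Alas2, which starts haem synthesis in red cells, differed by 0.81 ± 0.42. In the neutrophil and mast cell list the measured members, Cma1 and Cpa3, were both positive and not called. Hbb-b2, Cma1 and Cpa3 passed the intensity filter mainly through the knockout arrays, so their sign is given as a description. Without the filter, 12 of 20 neutrophil and mast cell markers were positive, with a median of 0.01. For the erythroid markers it was 8 of 10, with a median of 0.08. The 4 measured T and NK cell markers had a median near 0 and a range of -0.11 to 0.12.

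Other genes that were higher belong to no list used here. Tmem267, a transmembrane protein of little known function, showed the largest difference among the named genes that were higher, with 23.9, 38.7, 19.7 and 24.8 in wild type and 121, 111, 155 and 76.3 in Nfkb1-/- (2.11 ± 0.28, limma adjusted p = 0.000525). Xdh, xanthine dehydrogenase, the last enzyme of purine breakdown to urate, read 26.5, 108, 112 and 33.5 in wild type and 192, 156, 161 and 174 in the knockout (1.57 ± 0.35, limma adjusted p = 0.0413). The wild type arrays of Xdh fell at 2 levels, both below the knockout arrays. Fgfbp1, a carrier that releases FGFs from the matrix, read 23.2, 8.08, 14.9 and 13.4 against 31.5, 31.6, 41.2 and 35.3 (1.32 ± 0.27, limma adjusted p = 0.0263).

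Tiparp, the ADP-ribosyltransferase PARP7, a target of the aryl hydrocarbon receptor, read 45.3, 40.1, 28.0 and 32.5 in wild type and 92.8, 72.7, 74.9 and 58.2 in Nfkb1-/- (1.04 ± 0.15, limma adjusted p = 0.000875). Its other 2 probe sets differed by 0.08 and 0.39 and were not called. Gm9222 (1.27 ± 0.13) and Pisd-ps3 (1.04 ± 0.11), a pseudogene of phosphatidylserine decarboxylase, were higher in every knockout array, and reads of probes for such copies can come from related genes. Klk1b16, a tissue kallikrein, rose from 14.1, 2.91, 12.2 and 16.0 to 25.1, 42.3, 38.9 and 36.7 (1.89 ± 0.41, limma adjusted p = 0.0388). The higher probe set with the smallest adjusted p, 1452590_a_at, was listed with several genes and read 43.7, 43.8, 44.7 and 35.8 in wild type and 153, 151, 146 and 155 in the knockout (1.85 ± 0.10, limma adjusted p = 3.23e-08).

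Among the genes that were lower in Nfkb1-/-, Map3k7 and Igf2 were the members of any list used here. Purb, a repressor of muscle actin and myosin genes that binds purine-rich single strands, read 101, 165, 114 and 132 in wild type and 39.7, 44.7, 42.9 and 48.3 in the knockout (-1.52 ± 0.15, limma adjusted p = 2.88e-05). Its other 2 probe sets differed by -0.20 and 0.02 and were not called, so the fall was seen with 1 of 3 probe sets. Ywhaz, the 14-3-3 zeta adaptor, was lower at 1 probe set, 45.1, 48.8, 42.4 and 44.2 against 19.6, 17.0, 21.8 and 19.2 (-1.22 ± 0.13, limma adjusted p = 5.7e-05), while its other 5 ranged from -0.25 to 0.31. Cuedc1, a ubiquitin-binding protein, fell at 1 probe set from 99.4, 86.9, 79.0 and 76.9 to 19.1, 21.6, 15.5 and 18.6 (-2.20 ± 0.43, limma adjusted p = 0.0162), and its other probe set stood at 0.10.

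Pgap2, which remodels the lipid of GPI anchors, fell at both of its probe sets. The brighter one read 70.5, 67.0, 63.9 and 56.9 in wild type and 28.8, 31.7, 28.8 and 28.6 in Nfkb1-/- (-1.13 ± 0.10, limma adjusted p = 1.59e-05), and the other differed by -1.10 ± 0.12. Kdelr2, a receptor that returns proteins to the endoplasmic reticulum, fell at both probe sets as well, by -0.89 ± 0.11 and -0.59 ± 0.10, as did Kcnc4, a voltage-gated potassium channel, by -0.84 ± 0.12 and -0.60 ± 0.10. With B2m and Mndal these were the 5 genes called at every probe set, of 28 called genes that had more than 1 tested. In 20 of the 28 the probe sets shared 1 sign.

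Nfia, a transcription factor of the nuclear factor I family, read 54.8, 23.4, 30.3 and 27.1 in wild type and 13.4, 11.6, 11.5 and 13.6 in the knockout (-1.36 ± 0.19, limma adjusted p = 0.000757). Alpk3, an alpha-kinase of heart and muscle whose loss causes cardiomyopathy, read 177, 461, 158 and 50.5 against 40.1, 40.8, 44.6 and 41.8 (-1.93 ± 0.42, limma adjusted p = 0.0352), a wide wild type range above a narrow knockout one. Pttg1, or securin, had the largest fall of all called probe sets and an overlap between groups (-2.32 ± 0.51, limma adjusted p = 0.0384). Of its wild type arrays 3 read 686, 758 and 850 and 1 read 95.3, while the knockout arrays read 82.9 to 99.5. In unloaded muscle Pttg1 was 914 to 1493 on all 4 wild type arrays and 78.8 to 213 on the knockout arrays.

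Mitochondrial proteins among the lower genes were Mrpl47 of the mitochondrial ribosome (-0.70 ± 0.12), Cox18, which inserts a cytochrome oxidase subunit into the inner membrane (-0.64 ± 0.12), and the alcohol dehydrogenase Adhfe1 (-0.75 ± 0.13). Ttc28 (-0.86 ± 0.19), Tmtc4 (-0.73 ± 0.14), Eny2 (-0.66 ± 0.15) and the cohesin loader Mau2 (-0.63 ± 0.12) completed those picked by size. Eny2 has 3 probe sets, and the other 2 differed by 0.34 and 0.08 without being called. Igf2, the growth factor expressed in fetal and regenerating muscle, read 161, 170, 217 and 148 in wild type and 118, 124, 113 and 139 in Nfkb1-/- (-0.49 ± 0.11, limma adjusted p = 0.0468). It was the one gene called of 21 measured in the list of IGF, Akt and FoxO signalling, which had a median of -0.02. The lowest adjusted p among the lower probe sets, 3.23e-08, belonged to 1427705_a_at, which had no listed gene. It read 69.5, 69.9, 72.4 and 75.4 in wild type and 32.2, 30.8, 33.8 and 33.1 in the knockout.

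**Figure D2:**
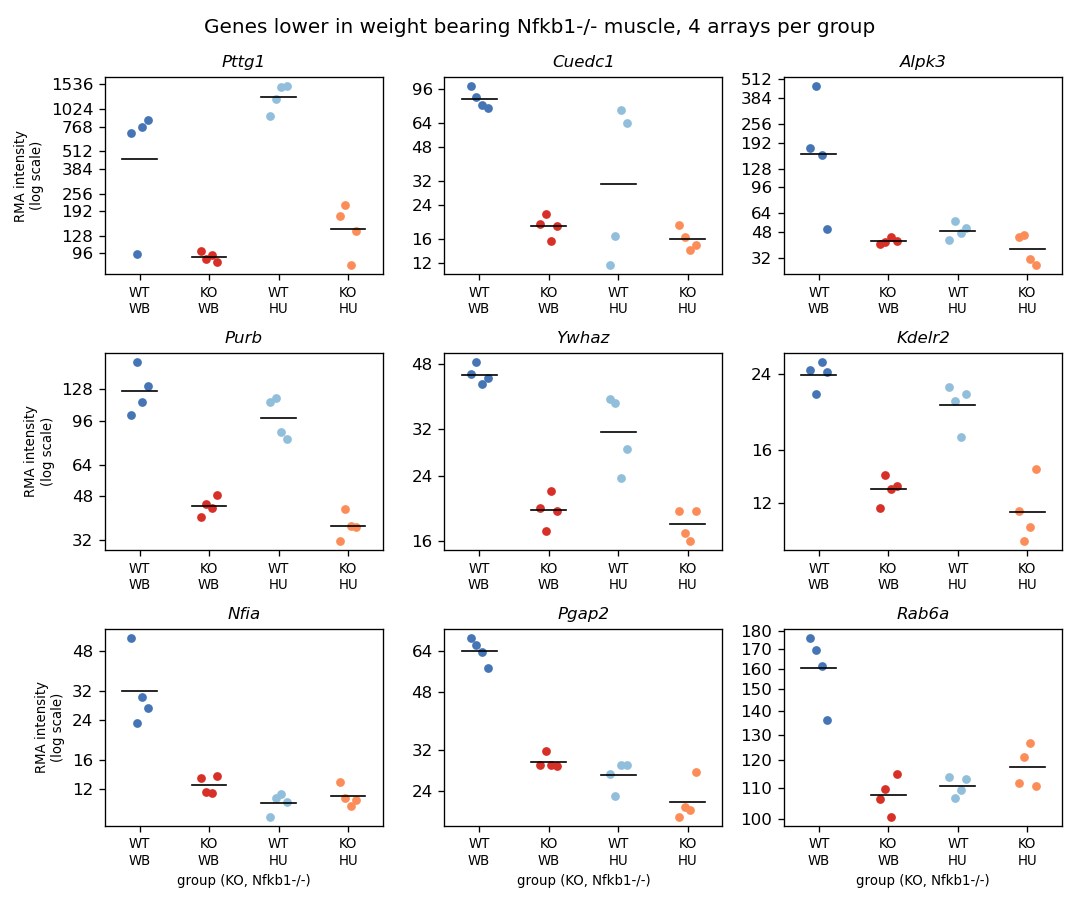
RMA intensity (log scale) of 9 genes called lower in WB Nfkb1-/- muscle, for the 4 arrays (points) and the geometric mean (bar) of each group: wild type (WT) and Nfkb1-/- (KO), weight bearing (WB) and unloaded (HU). Purb, Ywhaz, Kdelr2 and Pttg1 stayed low in the unloaded knockout, while wild type Nfia, Pgap2 and Rab6a were near the knockout level after unloading.

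The NF-kB pathway itself was little changed at the RNA level. Rela, the p65 subunit, was the measured one of 5 subunits and read 44.2, 46.7, 47.5 and 43.8 in wild type and 45.3, 44.9, 46.4 and 44.2 in Nfkb1-/-, a difference of -0.01 ± 0.07. Of Rel, Relb and Nfkb2, none passed the filter on intensity. Among the IkB proteins and the IKK complex, 10 of 21 members were measured, 1 was called lower and the median was -0.05. That gene was Map3k7, the kinase TAK1 that activates IKK, at 61.9, 68.8, 50.8 and 59.7 in wild type and 39.8, 43.8, 49.3 and 39.1 in the knockout (-0.49 ± 0.11, limma adjusted p = 0.0445). Its second probe set differed by -0.57 (limma adjusted p = 0.0528).

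Nfkbia, which encodes the main IkB and is itself an NF-kB target, read 443, 578, 333 and 742 in wild type and 560, 575, 601 and 312 in the knockout (-0.02 ± 0.24). Ikbkb (-0.08 ± 0.10), Ikbkg (-0.01 ± 0.09), Tbk1 (0.14 ± 0.15), Tab2 (-0.11 ± 0.10), Nkiras2 (0.00 ± 0.09) and Commd1 (0.03 ± 0.10) stood near 0. Nkiras1, a small GTPase that slows the breakdown of IkB, and Nfkbib were lower without passing, by -0.32 ± 0.10 and -0.25 ± 0.13. Of the 52 NF-kB target genes in the list, 16 were measured, none was called, 1 had an unadjusted p under 0.05, and the median was -0.03. Cxcl12, a chemokine, had the lowest p among them (-0.45 ± 0.17, limma adjusted p = 0.317), followed by Tnip1, an inhibitor of the pathway (-0.15 ± 0.09). Without the filter 1 of 49 target genes was called, Cxcl9, a chemokine that interferon-gamma also induces, at 5.85 ± 0.924 (SD) in wild type and 9.35 ± 0.762 in the knockout. None of 5 measured upstream receptors and adaptors of TNF, TLR and IL-1 was called, with Tnfrsf12a at 0.28 ± 0.30 and Il1r1 at -0.23 ± 0.18. Without the filter Traf2, an adaptor of TNF receptors, was called lower (-0.45, limma adjusted p = 0.0348).

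**Figure D3:**
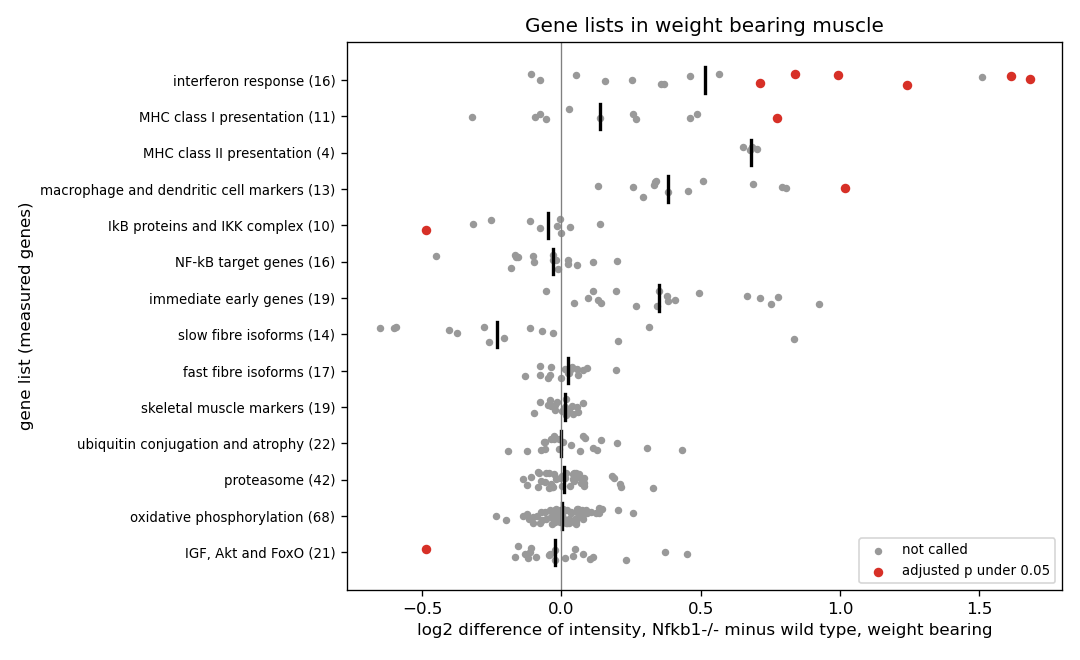
Log2 difference in WB muscle (Nfkb1-/- minus wild type) of each measured gene in 14 gene lists, with the number of measured genes in brackets; points are genes (red, adjusted p under 0.05) and black bars are medians. The interferon response list reaches from -0.11 to 1.68 with 6 genes called. NF-kB target genes, skeletal muscle markers and fast fibre isoforms lie around 0, and slow fibre isoforms have a median of -0.23.

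The muscle fibres showed no called gene in the lists that describe them. All 19 skeletal muscle markers with a probe set were measured, with differences of -0.10 to 0.08 and none called. Atp2a1, the calcium pump of fast fibres, was the 1 marker whose arrays did not overlap (-0.08 ± 0.06). In 17 fast fibre isoforms the median was 0.03. The 14 slow fibre isoforms had a median of -0.23, with Tpm3, the slow tropomyosin, at -0.59 ± 0.15 (limma adjusted p = 0.0899) and Myh7, the slow myosin heavy chain, at -0.65 ± 0.22. Casq2, the slow calsequestrin, was the other way at 0.83 ± 0.20 (limma adjusted p = 0.0556). Of the 14 slow isoforms 3 were positive, and 5 had arrays that did not overlap, against 8.37% of all tested probe sets. Myom2, an M-band protein, was called lower outside these lists, at 1289, 1751, 1336 and 1632 in wild type and 1010, 1084, 1011 and 1016 in Nfkb1-/- (-0.53 ± 0.10, limma adjusted p = 0.0118), and is named after its value was seen.

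In the ubiquitin and atrophy list none of 22 measured genes was called and the median was 0.00, with Cul4a and Ube2e1 lowest in p. The proteasome (42 genes, median 0.01), oxidative phosphorylation (68 genes, median 0.00), the citrate cycle and fatty acid oxidation (37 genes, median 0.04) and glycolysis and glycogen (25 genes, median -0.02) held no call either. Immediate early genes had positive differences in 18 of 19, against 48.1% of all genes. Their median was 0.35 and none was called, with Klf2 at 0.92 ± 0.32 and Klf4 at 0.71 ± 0.25. By the brightest probe set of each gene, 33 of the 38 lists held no called gene (Clu and Prdx2 were called higher at another probe set, at 0.58 and 0.56), and of the 22 of these with at least 10 measured members 17 had a median within 0.1 of 0.

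The genotypes were compared a second time in unloaded muscle, where the difference comes from other animals and arrays. Both comparisons came from the same fit and shared its estimate of the spread, so their p-values are not independent. There 1453 of 9309 probe sets (15.6%) were called, 460 higher (4.94%) and 993 lower (10.7%) in Nfkb1-/-. Of the 84 probe sets called in WB muscle, 48 were called in HU muscle with the same sign, which are 48 of the 1453 called there. They were 28 of the 50 higher and 20 of the 34 lower ones. The sign was shared by 49 of the 50 and 31 of the 34. The HU difference was smaller than the WB difference at 42 of the 50 higher probe sets (median 0.52 against 0.84) and at 26 of the 34 lower ones (median -0.46 against -0.68). These probe sets were chosen for their WB difference, so a smaller one in separate animals is what the choice alone would give.

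Genes that kept the difference in unloaded muscle included Tmem267 (2.88 ± 0.28 in HU), Xdh (2.02 ± 0.35), Ifi27l2a (1.64 ± 0.35), Rtp4 (1.16 ± 0.15) and Ifit3 (0.91 ± 0.23) above wild type, and Pttg1 (-3.13 ± 0.51), Purb (-1.43 ± 0.15) and Ywhaz (-0.83 ± 0.13) below it. Bst2 was called in HU with a difference of 0.58 ± 0.18, and the WB and HU differences of Bst2 did not differ past the test (limma adjusted p = 0.0618). B2m, Ctss and Lgals3bp were not called in HU, at 0.25 ± 0.16, 0.59 ± 0.22 and 0.49 ± 0.19. Their WB and HU differences did not differ past the test either (limma adjusted p = 0.22, 0.49 and 0.264), so a loss in HU is not shown.

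**Figure D4:**
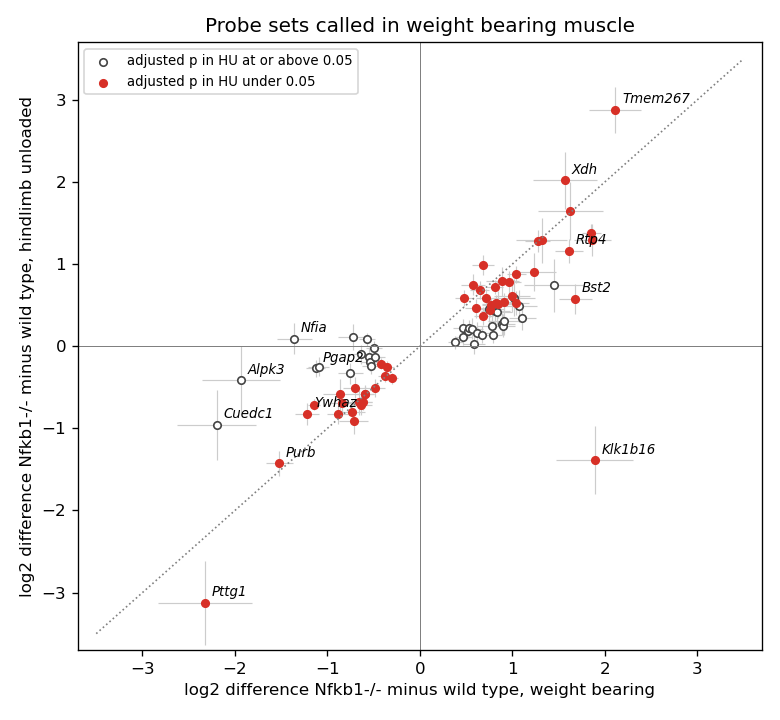
Log2 difference (Nfkb1-/- minus wild type) in HU muscle against that in WB muscle for the 84 probe sets called in WB muscle; whiskers are standard errors, red points were called in HU as well, and the dotted line marks equal differences. Most points share the sign and lie nearer to 0 on the HU axis, as the choice by the WB difference would give, and Klk1b16 lies in the opposite quadrant.

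A difference that depended on loading was called at 47 probe sets (0.505%), 6 of which were also called in WB muscle. Klk1b16 was higher in the WB knockout and lower in the HU knockout (-1.39 ± 0.41, limma adjusted p = 0.033), with wild type HU arrays of 17.7 to 33.8 and knockout ones of 5.83 to 13.8. Nfia was at 9.05 to 11.3 in wild type and 10.1 to 12.9 in knockout HU muscle, so that the wild type level seen in WB muscle was the one that stood apart. Both probe sets of Pgap2 were called for dependence, the brighter at 0.86 ± 0.14 (limma adjusted p = 0.0214), with HU differences of -0.27 and -0.25. Rab6a, a GTPase of Golgi traffic, fell at 1 of 2 probe sets in WB muscle (-0.57 ± 0.08, limma adjusted p = 0.0011) and not in HU muscle (0.08 ± 0.08). Ap4s1, a subunit of the adaptor complex AP-4, was 0.79 ± 0.10 in WB and 0.13 ± 0.10 in HU muscle. The count of 47 rested on single arrays. It was 4 without Nfkb1-/- WB replicate 4, 10 without Nfkb1-/- WB replicate 1, and 13 to 29 without any other single array, except wild type HU replicate 4 (37) and Nfkb1-/- HU replicate 4 (51).

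A deletion made in stem cells of one strain and crossed to another carries flanking alleles with it, so the genes beside Nfkb1 on chromosome 3 were read on their own. Of the 50 protein-coding genes on each side, 34 were measured and 1 was called, Gbp7, which lies 31 genes away. Gbp7 is also a called member of the interferon response list. Gbp2, 34 genes away, differed by 0.25 ± 0.12 and was not called (limma adjusted p = 0.481). The window was not read without the filter on intensity, so calls among its dimmer genes are not counted here. Among the 10 nearest on each side the 6 measured were Ube2d3 (0.06 ± 0.09), Ppp3ca (0.00 ± 0.10), Emcn (0.01 ± 0.12), Ddit4l (-0.14 ± 0.19), H2az1 (-0.05 ± 0.16) and Lamtor3 (-0.08 ± 0.07), none of them called. Over all chromosomes 63 of 5754 tested genes (1.09%) had a called probe set. Chromosome 3 held 7 of 309 (2.27%), chromosome 5 held 9 of 371 (2.43%) and chromosome 12 held 7 of 185 (3.78%), and whether these shares differ from the rest was not tested. In 4 pairs, called genes lay within 5 genes of each other, a pattern looked for after it was seen. Tmem267 and 4833420G17Rik, direct neighbours on chromosome 13, were both higher (2.11 and 0.68 in WB, 2.88 and 0.99 in HU). Strn3 and Ap4s1, direct neighbours on chromosome 12, were both higher (0.46 and 0.79), while Mrpl47 and Usp13 on chromosome 3 moved apart (-0.70 and 0.60), as did Mthfd1 and Sgpp1 on chromosome 12 (-0.30 and 0.38). Genes that are known to differ between inbred strains gave no call among 6 measured of 22 in WB muscle, with a median of -0.35. In HU muscle 2 of the 6 were called higher (Nnt and Trim30a, 0.48 and 0.60) and 2 lower (Glo1, at -0.81, and Psph), with a median of -0.58. Over all tested probe sets 4.94% were called higher and 10.7% lower in HU muscle, against 0.902% called in either direction in WB muscle. Without the filter, Gbp2b was called higher and Trim34a lower in WB muscle, by 1.06 and -0.85. The part of strain background in the differences was not tested.

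Single arrays of the knockout moved the count of calls. Without Nfkb1-/- WB replicate 1 there were 31 higher and 20 lower probe sets, without replicate 2 there were 36 and 22, and without replicate 3 there were 32 and 25. The 51 probe sets called without replicate 1 were all among the 84. When the 8 WB arrays were fitted on their own, 110 were higher and 57 lower, of which 72 were among the 84. Of the 50 higher probe sets, 8 had no wild type array above 20, and of the 34 lower ones 3 had no knockout array above 20, so that their folds rest on low intensities on 1 side.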

How the data were processed

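RNA of gastrocnemius and plantaris muscle was hybridised to Affymetrix Mouse Genome 430A 2.0 arrays. The intensity values were deposited by the authors on a linear scale, after RMA with quantile normalization in GenePattern. The 8 arrays of the Bcl3 genotype had medians of 81.1 to 86.8 and were not used in the main fit. Of 22690 probe sets, 64 controls were left out, 20380 are listed with 1 gene, 691 with several and 1555 with none, and only the first were named.

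Log2 intensities of the 16 wild type and Nfkb1-/- arrays were fitted with limma 3.58.1 in R 4.3.3 with 1 mean per group (12 residual df), over the 9309 probe sets above 20 on 4 of the 8 WB arrays. Contrasts were Nfkb1-/- minus wild type in WB, in HU, and their difference. The threshold was an adjusted p of 0.05. The script was tested on simulated data.

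Named were the 15 largest calls per direction with 1 gene and no overlap, up to 4 called genes (otherwise the 2 lowest p) of each of 38 gene lists, NF-kB family members, neighbours of Nfkb1 and up to 10 calls for dependence. For lists, the brightest probe set stood for a gene. The comparison, lists and genes were chosen with earlier results of these data known. Alternatives included other filters, scalings, array sets, weights and the methods' t-test.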

Additional observations from a re-analysis of the deposited data

Results flagged for a closer look

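The genotype difference of 12 named probe sets differed between unloaded and weight bearing muscle in the test of that difference itself. The HU difference minus the WB difference (log2) was -3.28 for Klk1b16, 1.51 for Tial1, 1.45 for Nfia, 0.86 for Pgap2, -1.23 for Itgb6, -1.07 for Pts, -1.04 for Rab40b, -0.91 for Mrpl55 and -0.91 for Prss23. For 3 probe sets with no listed gene it was -1.45 (1421002_at), -1.43 (1450085_at) and -1.09 (1455090_at). Tial1, an RNA-binding protein of stress granules, read no higher than 28.3 on the 8 WB arrays, 11.0 to 12.5 on the wild type HU arrays and 29.6 to 36.1 on the knockout HU arrays. In WB muscle Pts and Rab40b were not called (-0.09 ± 0.12 and -0.06 ± 0.12).

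Single arrays stood apart from the other 3 of their group in 17 of 240 groups of named probe sets by Dixon's test at the 95% level, which chance alone passes in about 1 of 20 groups. The values are the gap to the nearest array as a share of the range of log2 intensity. The wild type WB group had a high array for B2m (0.921), Ifit3 (0.871), H2-Eb1 (0.887), Ttc28 (0.938), Ndufb5 (0.936), Rpl38 (0.839) and 1421002_at (0.961), and a low one for Klk1b16 (0.843), Ctsz (0.937) and Itga7 (0.858). The Nfkb1-/- WB group had a high array for Ifit3 (0.848) and Pgap2 (0.926), and a low one for Nfkbia (0.893), Tbk1 (0.964), Psph (0.855), Tpm3 (0.833) and Zap70 (0.835).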

How the results depend on the processing

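Of the 120 named probe sets none changed sign past the test under the 30 alternatives run on them. Of the 33 that were called, 15 were called under every alternative that tested them and 18 lost the call under at least 1, most often Igf2 (19 alternatives), Eny2 (17), Map3k7 (15) and Xdh (15). The counts of higher and lower probe sets were 84 and 53 with no filter on intensity, 78 and 52 with a filter on 4 of all 24 arrays, 96 and 52 with the filter of the study, 110 and 57 with the 8 WB arrays alone, and 204 and 210 with array weights. Higher probe sets numbered 31 with a filter at 50, 80 with all 24 arrays in the fit and 116 by the methods' t-test with q-values, and lower ones 4 by the methods' t-test with Benjamini-Hochberg adjustment. With single arrays left out in turn, the higher probe sets numbered 31 to 65 and the lower ones 20 to 46. Calls shared with HU numbered 181 with array weights and 30 to 57 with 1 array left out. Calls for dependence on loading numbered 97 with all 24 arrays, 213 with array weights, 81 with quantile normalization again, and 4 to 51 with 1 array left out. Interferon genes called higher numbered 14 with no filter, 13 with the filter on all 24 arrays, 1 with the filter at 50, and 5 to 8 with 1 array left out. Their median difference was 0.99 with the filter of the study, 0.35 with 16 added before log2, 0.36 with intensities under 20 set to 20 (chosen after seeing the data), and 0.44 to 0.59 with 1 array left out. The cause of these changes was not tested beyond the change in arrays or probe sets that each alternative makes. The replicate block gave 43 higher and 31 lower probe sets, of which 68 were among the 84, and the samples share no more than a number, since the deviations of same-numbered WB arrays correlated at 0.0639, 0.0577, -0.171 and -0.146. Intensities carry no depth, and signal near the background limits the folds of dim probe sets.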
